A study of Mus musculus with 12 samples.

Results

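The guanylate-binding proteins (GBPs) and the immunity-related GTPases (IRGs) are interferon-inducible GTPases, and 10 of their genes were followed through mouse bone marrow-derived dendritic cells (BMDCs) activated with lipopolysaccharide (LPS) in the presence or absence of an NF-κB inhibitor. The genes were taken by symbol, after the gene identifiers had been mapped to mouse GENCODE without their version. They comprised the GBP genes Gbp2, Gbp3, Gbp5 and Gbp7 and the IRG genes Irgm1, Irgm2, Igtp, Iigp1, Ifi47 and Tgtp2. They were 10 of 55335 genes listed, and all 10 were among the 14357 genes with enough counts to be tested.

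GBPs and IRGs bind to the membranes of vacuoles that enclose intracellular bacteria and parasites and, for GBPs, to bacteria that have entered the cytosol, where they help to open the compartment and to expose microbial products to inflammasomes. Irgm1, Irgm2 and Igtp (also called Irgm3) encode the regulatory IRGs, which reside on the cell's own membranes and hold the effector IRGs, among them those encoded by Iigp1 (Irga6), Ifi47 (Irgd) and Tgtp2 (Irgb6), in an inactive state. Transcription of both families is driven by interferons, through factors that bind the gamma-activated site (GAS) or, as IRF1 does, the interferon-stimulated response element (ISRE).

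A total of 4 groups of libraries were compared. All cells were grown from the bone marrow of C57BL/6 mice, of either sex and young adult, that carried the CreER transgene (a tamoxifen-inducible Cre expressed from Rosa26) and intact Ctcf alleles (Ctcf wt/wt), and were kept for 6 days with GM-CSF, the medium being replaced every 2 days. CD11c+ cells were then selected. The paper describes adding 4-hydroxytamoxifen on the first day of culture to delete loxP-flanked Ctcf alleles. It does not make clear whether the cultures of these 4 groups received it. WT cells received neither LPS nor JSH-23, and WTL cells received LPS at 100 ng/ml for 3 h. WT + JSH23 and WTL + JSH23 cells were exposed to JSH-23 at 100 µM for 3 h, the latter before the same LPS treatment. JSH-23 is a small molecule that keeps RelA, a subunit of NF-κB, out of the nucleus. Each group had 3 libraries, numbered 4 to 6 in WT and WTL and 1 to 3 in the JSH-23 groups. They were described as biological replicates, but no label ties them to separate mice, so the p-values measure the spread between these libraries. Whether the groups without JSH-23 were given its solvent, and whether all groups were cultured side by side, was not stated in the sources used here, so JSH-23 cannot be told apart from its solvent or from a separate round of culture.

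Total expected counts (read pairs assigned to genes) ranged from 24664724 to 34837847 per library. Libraries of a group differed by more than sampling noise in every pair (chi-square per degree of freedom 2.40 to 10.08). Replicate 3 of WTL + JSH23 stood farthest from its group (9.02 and 10.08 against its replicates, 2.40 to 4.84 for pairs without it), and values without it are given beside the counts and interactions of the members. All 8 dendritic cell markers passed the count filter, with Itgax (CD11c) at 656 CPM and Cd74 at 9807 CPM in WTL, and none of 5 B cell markers did. CPM values are counts relative to library sizes scaled by TMM (trimmed mean of M values).

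The 4 GBP genes lie in one cluster on chromosome 3, between 142493978 and 142638008 (mm10, plus strand), in the order Gbp5, Gbp7, Gbp3 and Gbp2. The IRG genes other than Iigp1 lie on chromosome 11. There, Irgm1 (48861968 to 48871683, minus strand), Tgtp2 (49057194 to 49064206, minus strand) and Ifi47 (49076587 to 49096974, plus strand) lie in one cluster, with other genes of the families between Irgm1 and Tgtp2, while Igtp (58199556 to 58207591) and Irgm2 (58199618 to 58222782) share exon sequence on the plus strand. Reads that fit both of the last pair were divided between them, so their expected counts were fractional in 12 of 12 libraries and their changes are not independent. Tgtp2 also had fractional counts in 12 of 12 libraries, because it is nearly identical to Tgtp1, and Ifi47 shares exon sequence with the olfactory receptor gene Olfr56. Fractional counts occurred in 5 libraries for Ifi47, in 7 for Gbp3 and for Gbp7 and in 2 for Gbp2, whereas Gbp5, Irgm1 and Iigp1 had whole counts throughout.

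The sequences just upstream of the transcript starts were searched for motifs of the interferon pathway and of NF-κB. RefSeq promoter windows (GRCm38.p6, from 250 bases before to 50 bases after the start) were found for 9 of 10 members. RefSeq starts can differ from the gene starts of GENCODE. The stretches printed for Gbp5 and Irgm2 lie inside the GENCODE spans of these genes, not upstream of them. Both strands were searched for the ISRE core (GAAA, any 2 bases, GAAA), the GAS (TTC, any 3 bases, GAA) and the κB consensus bound by NF-κB. The stretches holding the matches are printed 5′ to 3′ on the strand of the gene, with the matched bases in capitals, for the GBP genes first.
Gbp5 (chr3:142496684-142496900, + strand): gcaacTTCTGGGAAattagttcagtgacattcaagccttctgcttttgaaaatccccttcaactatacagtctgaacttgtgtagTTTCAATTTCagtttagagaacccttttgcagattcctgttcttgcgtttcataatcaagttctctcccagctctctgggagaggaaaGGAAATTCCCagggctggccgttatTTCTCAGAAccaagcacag
Gbp7 (chr3:142530205-142530302, + strand): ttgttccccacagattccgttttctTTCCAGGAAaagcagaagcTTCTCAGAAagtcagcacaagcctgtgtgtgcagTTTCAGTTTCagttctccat
Gbp3 (chr3:142559974-142560024, + strand): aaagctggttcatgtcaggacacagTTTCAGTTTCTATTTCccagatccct
Gbp2 (chr3:142620579-142620623, + strand): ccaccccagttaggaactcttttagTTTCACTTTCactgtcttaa
In Gbp5 the capitals mark, in order, a GAS, an ISRE on the opposite strand, a κB match on the opposite strand and a second GAS, starting 245, 165, 77 and 52 bases before the transcript start. Gbp7 has a GAS at 106 and at 87 bases and an ISRE at 53 bases, Gbp2 an ISRE at 59 bases, and Gbp3 a pair of overlapping ISRE matches at 45 and 39 bases. All 5 of these ISRE matches read on the opposite strand.

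The IRG promoters are shown to set the arrangement of the GAS and the ISRE beside that of the GBP genes.
Irgm1 (chr11:48871425-48871475, minus strand): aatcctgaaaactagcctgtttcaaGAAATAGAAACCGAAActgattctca
Tgtp2 (chr11:49064263-49064318, minus strand): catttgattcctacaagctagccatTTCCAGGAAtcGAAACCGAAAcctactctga
Igtp (chr11:58199486-58199541, + strand): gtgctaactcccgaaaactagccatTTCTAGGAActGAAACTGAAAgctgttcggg
Irgm2 (chr11:58214877-58214932, + strand): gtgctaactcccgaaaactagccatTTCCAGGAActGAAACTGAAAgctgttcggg
Irgm1 has a pair of overlapping ISRE matches, starting 30 and 24 bases before the start, and no GAS match. In Tgtp2, Igtp and Irgm2 the GAS is followed by the ISRE after 2 bases, both on the strand of the gene. The stretches of Igtp and Irgm2 are identical at 55 of 56 bases, and that of Tgtp2 is identical to them at 37 and 38 of 56. No match to the 3 motifs was found in the window of Ifi47.

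An ISRE was thus present in 8 of 9 member windows, against 3.44% of 32851 mouse promoter windows of the same length. A GAS was present in 5 (Gbp5, Gbp7, Igtp, Irgm2 and Tgtp2), against 8.30% of all windows, and all 5 also held an ISRE, a combination found in 0.454% of all windows. Iigp1 had no entry in the table. The κB consensus was matched in 1 of the 9 (Gbp5), against 5.80% of all windows, and 1 match is too few to set Gbp5 apart. The stretches of Igtp and Irgm2 are nearly identical and that of Tgtp2 has the same arrangement, so the member counts are not over independent promoters. Some windows of the whole set belong to alternative starts of one gene, and a match of letters does not show that a factor was bound.

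**Figure D1:**
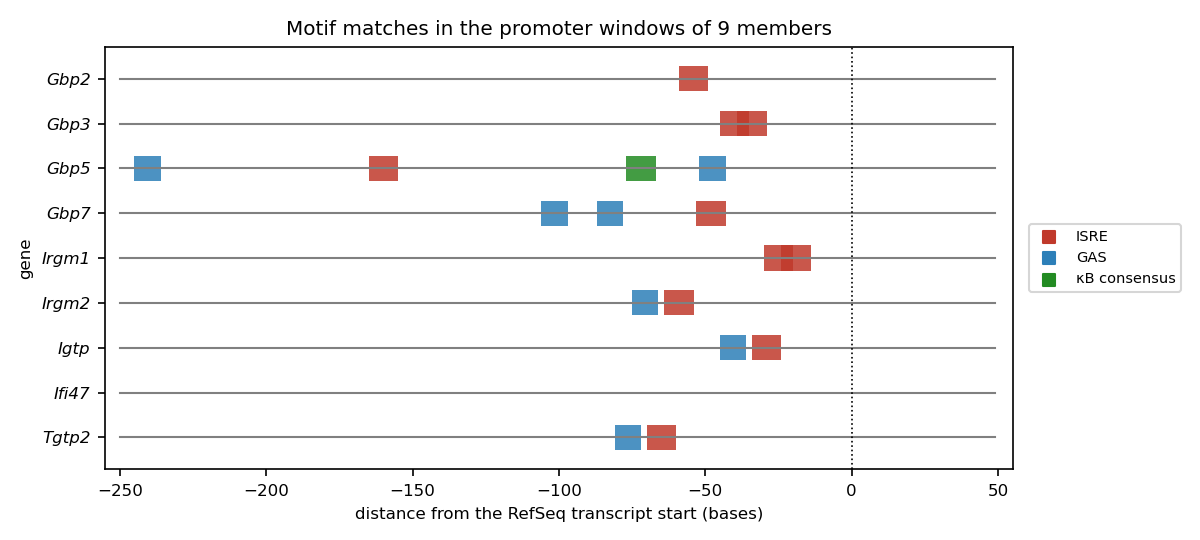
Positions of the ISRE, GAS and κB matches (coloured boxes, drawn to scale) in the promoter windows of 9 members, as distance in bases from the RefSeq transcript start (dotted line). All matches lie before the start, the κB match is in Gbp5, and Ifi47 has none of the 3 motifs.

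Per transcript length, as TPM (transcript abundances that sum to one total in each library), Gbp2 was by far the most abundant member. Its TPM was 2844, 2944 and 2896 in WT, 2138, 2127 and 2184 in WTL, 1793, 1826 and 1742 in WT + JSH23 and 1511, 1519 and 1328 in WTL + JSH23. It made up 58.0% ± 0.32 (SD, n = 3) of the summed TPM of the 10 members in WT, 47.9% ± 0.65 in WTL, 60.5% ± 0.71 in WT + JSH23 and 53.8% ± 1.11 in WTL + JSH23. Iigp1 was the least abundant in each group, with 54.5, 58.2 and 51.0 in WT and 7.68, 9.02 and 7.30 in WTL + JSH23.

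The order between these extremes changed mainly through Gbp5. In WT the order of mean TPM was Gbp2, Gbp3, Ifi47, Irgm1, Gbp5, Tgtp2, Igtp, Gbp7, Irgm2 and Iigp1, and only the libraries of the neighbours Irgm1 and Gbp5 overlapped. Gbp5 had rank 5 in WT and in WT + JSH23 and rank 2 in WTL and in WTL + JSH23. In WTL the libraries of Igtp and Tgtp2 and those of Tgtp2 and Gbp7 overlapped, and in WTL + JSH23 those of Ifi47 and Irgm1, so the order of these neighbours did not hold beyond their spread. The summed TPM of the members was 4995 ± 101 (SD, n = 3) in WT, 4486 ± 34.1 in WTL, 2955 ± 35.8 in WT + JSH23 and 2697 ± 147 in WTL + JSH23.

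**Figure D2:**
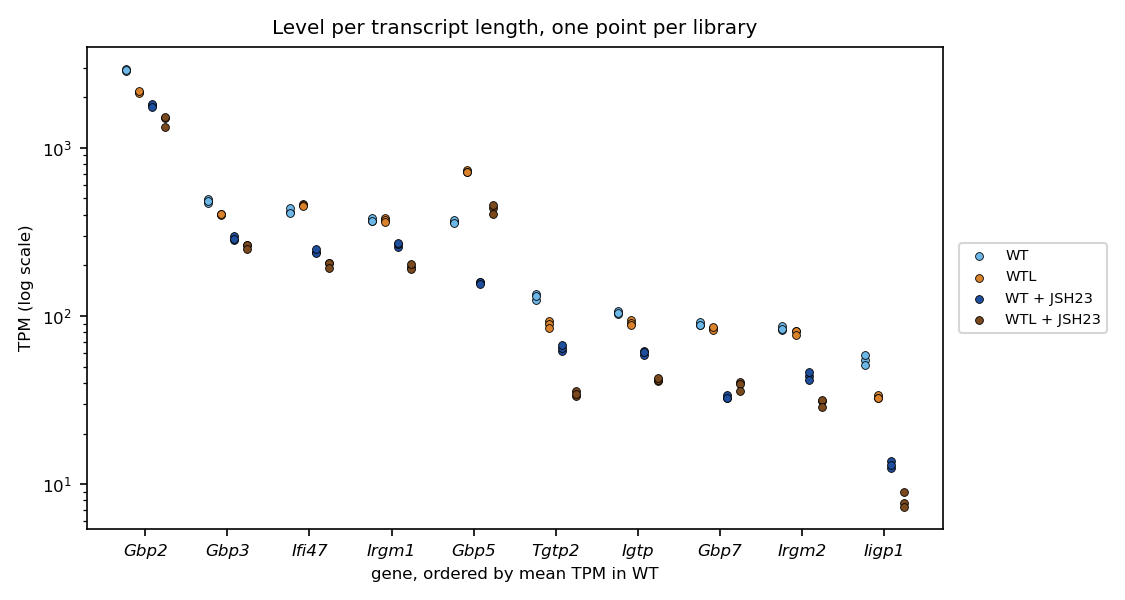
TPM of each member on a log axis, with 1 point for each of the 12 libraries coloured by group and genes ordered by their mean in WT. Gbp2 lies above and Iigp1 below the others in every group, and Gbp5 moves above Gbp3, Ifi47 and Irgm1 with LPS.

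All 10 members were lower with JSH-23, both without and with LPS, and Iigp1 fell the most. The GBP genes are described first. Gbp2, which coats pathogen-containing vacuoles and bacteria, had 3966, 4160.4 and 4044 CPM in the 3 libraries of WT and 2527, 2531 and 2476 in WT + JSH23, and 3803, 3826 and 3762 in WTL against 2415, 2468 and 2179 in WTL + JSH23. The groups with and without JSH-23 did not overlap, and its log2 change with JSH-23 was -0.69 ± 0.04 (SE) without LPS and -0.69 ± 0.04 with LPS (edgeR adjusted p = 7.8e-12 and 5.7e-12). Gbp3 had 683, 723 and 691 CPM in WT, 745, 742 and 727 in WTL, 435, 404 and 419 in WT + JSH23 and 434, 448 and 422 in WTL + JSH23. Every JSH-23 library of Gbp3 was below every library without it, with log2 changes of -0.74 ± 0.038 and -0.76 ± 0.038.

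Gbp5, which promotes assembly of the NLRP3 inflammasome, had 637, 661 and 629 CPM in WT and 281, 279 and 277 in WT + JSH23, and was 2.30-fold lower with JSH-23 (log2 change -1.20 ± 0.041, adjusted p = 1.8e-15). With LPS it had 1678, 1643 and 1590.3 CPM in WTL and 889, 941 and 842 in WTL + JSH23, 1.84-fold lower (log2 change -0.88 ± 0.04, adjusted p = 1.2e-13). All libraries of WTL + JSH23 were still above all of WT, so that Gbp5 is the one member whose level with both treatments exceeded the untreated level. Gbp7 had 259.8, 278 and 259 CPM in WT and 98.6, 98.6 and 98.9 in WT + JSH23, and 322, 309.8 and 314 in WTL against 137, 136 and 124 in WTL + JSH23. Of the 4 GBP genes followed here it had the largest fall, by 2.69-fold without LPS and 2.38-fold with LPS (log2 changes -1.43 ± 0.042 and -1.25 ± 0.042).

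Among the regulatory IRGs, Irgm1, which also takes part in autophagy, had 426, 453 and 431 CPM in WT and 301, 309 and 324 in WT + JSH23. That was the smallest fall of the 10 without LPS (log2 change -0.49 ± 0.044, adjusted p = 8.5e-09). Under LPS it had 569, 563 and 521 in WTL and 261, 259 and 283 in WTL + JSH23, a log2 change of -1.04 ± 0.045. Irgm2 had 163, 174 and 166 CPM in WT, 206, 207 and 189 in WTL, 88.1, 91.8 and 84.4 in WT + JSH23 and 70.6, 72.5 and 67.4 in WTL + JSH23. Its groups were fully separate, and the log2 change with JSH-23 was -0.93 ± 0.045 without and -1.52 ± 0.047 with LPS. The overlapping Igtp showed the same order of groups, with 111, 118 and 112 in WT, 129, 127 and 118 in WTL, 64.2, 66.7 and 67.0 in WT + JSH23 and 50.8, 52.8 and 54.4 in WTL + JSH23. Its log2 changes were -0.79 ± 0.044 and -1.25 ± 0.046.

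Among the effector IRGs, Iigp1, which lies apart from the others on chromosome 18, had 87.6, 94.7 and 83.8 CPM in WT and 20.6, 21.7 and 21.1 in WT + JSH23, and 69.5, 67.2 and 62.8 in WTL against 14.5, 16.9 and 13.4 in WTL + JSH23. It fell 4.20-fold without and 4.45-fold with LPS (log2 changes -2.07 ± 0.063 and -2.15 ± 0.07, adjusted p = 4.7e-16 and 9.4e-16). Ifi47 had 365, 389.8 and 361 CPM in WT and 212, 205 and 222 in WT + JSH23, and 522, 520.1 and 485 in WTL against 208, 213 and 199 in WTL + JSH23. With JSH-23 it fell by 0.80 on the log2 scale without LPS and by 1.30 with LPS, and no JSH-23 library reached the level of an untreated one. Tgtp2 had 194, 217 and 197 CPM in WT, 187, 179.7 and 164 in WTL, 97.9, 100.0 and 104 in WT + JSH23 and 60.7, 65.3 and 57.8 in WTL + JSH23, with log2 changes of -1.01 ± 0.053 and -1.53 ± 0.056.

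**Figure D3:**
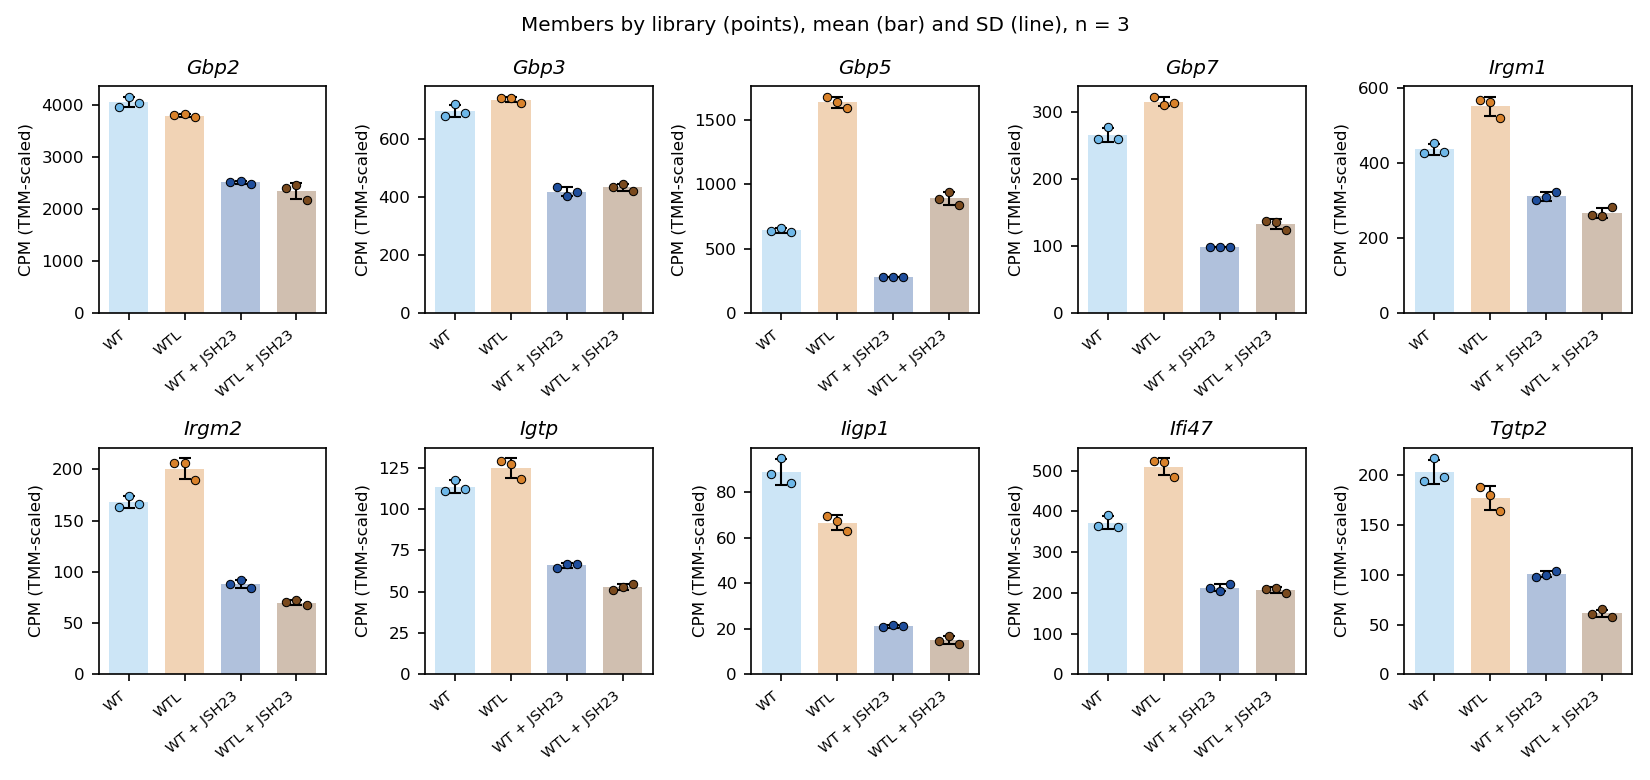
CPM (TMM-scaled) of each member in the 12 libraries (points), with the mean (bars, from 0) and the SD (lines) of the 3 libraries in each of the 4 groups. In every panel the JSH-23 libraries lie below the libraries with the same LPS treatment, and Gbp5 is the panel in which both LPS groups lie far above their counterparts.

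Counted over the members, 10 of 10 were lower with JSH-23 without LPS at an adjusted p under 0.05 (edgeR quasi-likelihood test, Benjamini-Hochberg over all genes tested), against 22.1% of all genes tested. More than 2-fold lower were 4 (Gbp5, Gbp7, Iigp1 and Tgtp2), against 2.94% of all genes (2.43% were more than 2-fold higher), and the median log2 change was -0.87 against -0.0078 over all genes. Tgtp2 lay at the 2-fold limit, with -0.96 without WT replicate 5 and -0.99 without WT + JSH23 replicate 1, which leaves 3 members past it. With LPS, 10 of 10 were lower, against 24.2% of all genes, and 7 were more than 2-fold lower (Gbp7, Irgm1, Irgm2, Igtp, Iigp1, Ifi47 and Tgtp2), against 3.25% (3.75% were more than 2-fold higher). The median log2 change there was -1.25 against 0.020 over all genes. Without replicate 3 of WTL + JSH23 these 7 ranged from -2.09 (Iigp1) to -1.08 (Irgm1), and the other 3 from -0.84 (Gbp5) to -0.64 (Gbp2). On the TPM scale, where the changes of all genes shifted by a median of 0.11, Irgm1 was at -0.92 with LPS and 6 members were more than 2-fold lower.

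**Figure D4:**
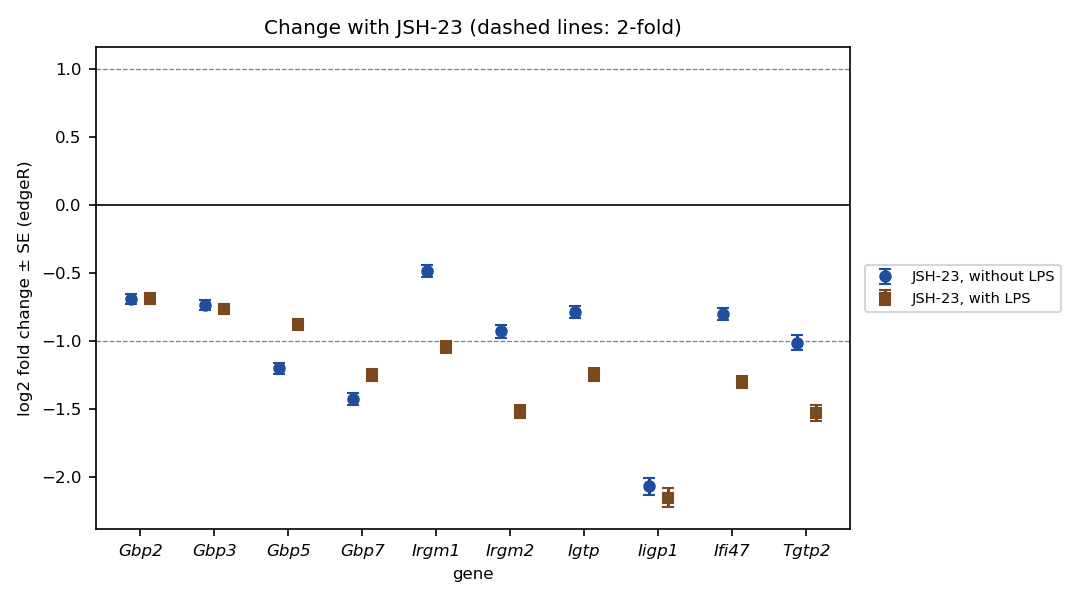
Log2 fold change with JSH-23 (points, edgeR, ± SE) for the 10 members without LPS (blue) and with LPS (brown), with dashed lines at 2-fold. All 20 points lie below 0, from -0.49 for Irgm1 without LPS to -2.15 for Iigp1 with LPS.

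LPS alone, which addresses how the members respond to activation, raised Gbp5 and left the other 9 within 2-fold. Gbp5 was 2.55-fold higher in WTL than in WT (log2 change 1.35 ± 0.04, adjusted p = 2.1e-17), and it was the one member called at an adjusted p under 0.05 and more than 2-fold, against 7.36% of all genes called higher and 9.09% called lower by that rule. At an adjusted p under 0.05 alone, 6 members were higher on the scaled counts (Gbp5 and Ifi47, and Gbp7, Irgm1, Irgm2 and Igtp, whose values on TPM were below 0) and 3 lower (Gbp2, Iigp1 and Tgtp2), against 31% and 34.7% of all genes tested. Ifi47 rose by 0.45 ± 0.042 on the log2 scale. Irgm1, Gbp7, Irgm2 and Igtp were at 0.34, 0.25, 0.26 and 0.14 on the scaled counts, Igtp no longer passing without WTL replicate 4 (0.11, adjusted p = 0.053) or with upper quartile scaling (0.054, adjusted p = 0.25). Gbp3, at 0.078 ± 0.038, did not pass (adjusted p = 0.075), but did without WT replicate 5 (0.10, adjusted p = 0.035), under DESeq2 size factors (0.11, adjusted p = 0.013) and, as lower, on TPM (-0.26). Iigp1 fell by 0.42 and Tgtp2 by 0.20. Gbp2, at -0.096 ± 0.04 (adjusted p = 0.04), no longer passed under DESeq2 size factors (-0.061, adjusted p = 0.19). Nor did it pass without any one of WT replicates 5 and 6 and WTL replicates 4, 5 and 6 (-0.10 to -0.077).

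These small LPS changes depend on the scale. On log2(TPM + 1) the changes of all genes lay lower than on the scaled counts by a median of 0.29. Gbp7 (-0.082), Irgm1 (-0.0013), Irgm2 (-0.074), Igtp (-0.20) and Gbp3 (-0.26) then had negative values. Relative to that median shift they were at 0.21, 0.29, 0.22, 0.095 and 0.036. Gbp5 (1.00) and Ifi47 (0.12) kept a positive and Gbp2 (-0.43), Iigp1 (-0.71) and Tgtp2 (-0.54) a negative value on TPM. Tgtp2 was at 0.13 (adjusted p = 0.053) when its counts were summed with those of Tgtp1, so its direction with LPS cannot be separated from how reads were divided between the copies.

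In the presence of JSH-23, LPS again raised Gbp5, 3.19-fold (log2 change 1.67 ± 0.041, adjusted p = 1.7e-18), the one member called against 5.85% of all genes called higher and 4.49% lower. Gbp7 rose by 0.43 ± 0.043. Lower were 5 members, against 27.1% of all genes at an adjusted p under 0.05 (27.4% were higher). They were the 3 regulatory IRGs Irgm1 (-0.22 ± 0.044), Irgm2 (-0.33 ± 0.048) and Igtp (-0.33 ± 0.047) and the effectors Iigp1 (-0.50 ± 0.077) and Tgtp2 (-0.71 ± 0.057). Ifi47 (-0.044 ± 0.044), Gbp2 (-0.093 ± 0.04) and Gbp3 (0.051 ± 0.038) did not pass, with adjusted p = 0.41, 0.053 and 0.28. Ifi47 and Gbp2 did pass as lower with upper quartile scaling (-0.13 and -0.18), and Gbp2 also with both other filters on low counts (-0.097 and -0.096) and without WTL + JSH23 replicate 1 (-0.12) or replicate 2 (-0.13). On TPM, where the changes of all genes shifted by a median of -0.18, Gbp7 kept a positive value and 8 members were lower. They were the 5 above and Ifi47 (-0.25), Gbp2 (-0.30) and Gbp3 (-0.15). Without replicate 3 of WTL + JSH23, Gbp5 was at 1.71 and Gbp7 at 0.47, and the 5 lower members ranged from -0.67 (Tgtp2) to -0.26 (Irgm1), each still passing.

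**Figure D5:**
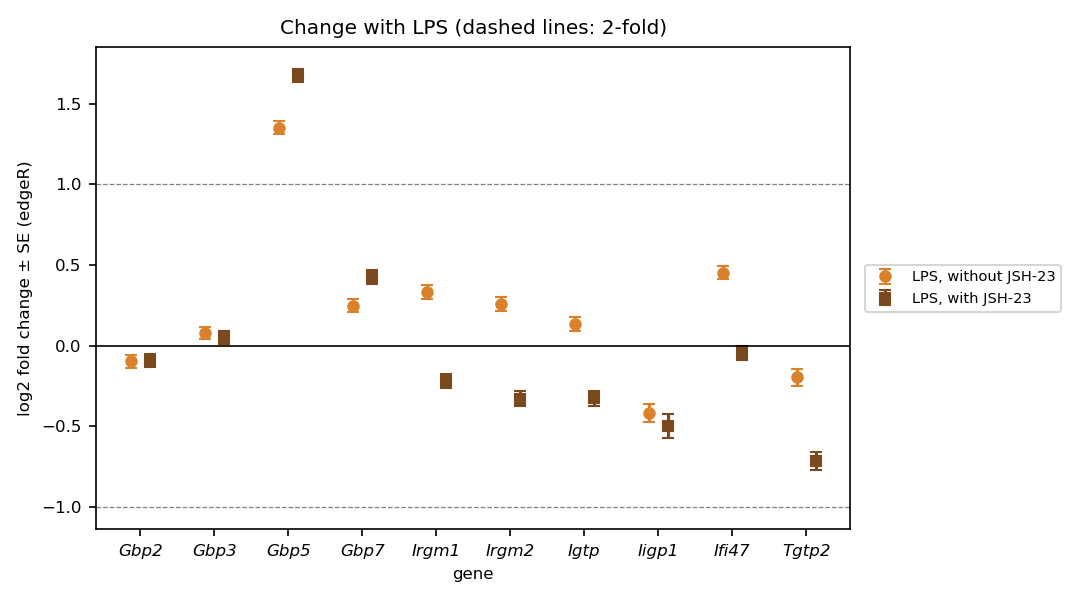
Log2 fold change with LPS (points, edgeR on scaled counts, ± SE) for the 10 members without JSH-23 (orange) and with JSH-23 (brown), with dashed lines at 2-fold. Gbp5 alone lies above 2-fold, and Irgm1, Irgm2 and Igtp lie above 0 without JSH-23, where TPM gives values below 0, and below 0 with it.

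Whether the LPS change differed with JSH-23 was tested directly as an interaction, the log2 change with LPS in the presence of JSH-23 less that in its absence. It passed for 7 of 10 members. It was negative for the IRG genes Irgm2 (-0.59 ± 0.065, adjusted p = 2.9e-06), Irgm1 (-0.55 ± 0.062), Tgtp2 (-0.52 ± 0.077), Ifi47 (-0.50 ± 0.061) and Igtp (-0.46 ± 0.063), against 8.44% of all genes with a negative one. Positive were Gbp5 (0.32 ± 0.056, adjusted p = 3.4e-04) and Gbp7 (0.18 ± 0.059, adjusted p = 0.041), against 9.54% of all genes. These values compare log2 changes. In mean CPM the rise with LPS was smaller with JSH-23, at 611 against 995 without it for Gbp5 and 33.8 against 49.9 for Gbp7. The value of Gbp7 no longer passed under DESeq2 size factors (0.15, adjusted p = 0.079) or when any one of 9 of the 12 libraries was left out (all but WT replicate 6, WTL replicate 4 and WTL + JSH23 replicate 3), with a lowest value of 0.14 and a highest adjusted p of 0.14. Gbp2 (0.0021 ± 0.056), Gbp3 (-0.027 ± 0.053) and Iigp1 (-0.083 ± 0.096) did not pass. On TPM, where the interactions of all genes shifted by a median of 0.11, the 5 negative values ran from -0.44 (Irgm2) to -0.32 (Igtp) and each passed. Without replicate 3 of WTL + JSH23 they ran from -0.60 (Irgm1) to -0.47 (Ifi47).

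Of 20 further genes of the families, all 20 were tested, and 16 were lower with JSH-23 without LPS and 16 with LPS, 8 and 11 of them more than 2-fold (shares for all genes as above). Gbp2b (Gbp1), next to Gbp2 on chromosome 3, had mean CPM of 86.1 in WT, 33.3 in WTL, 17.2 in WT + JSH23 and 8.28 in WTL + JSH23, and fell with JSH-23 by 2.33 and 2.00 on the log2 scale. Unlike Gbp5 it also fell with LPS, by 1.37 without and 1.05 with JSH-23. In the chromosome 5 cluster, Gbp4 was at -1.25 and -1.22 with JSH-23 without and with LPS and Gbp6 at -0.60 and -0.71. Exons of Gbp4 overlap those of Gbp8 and Gbp9, so reads were divided between them. Gbp6, whose exons overlap those of Gm43302, and Gvin1 also had fractional counts in 12 of 12 libraries. Gvin1, a very large interferon-inducible GTPase, was at -0.72 and -0.93. Irgq was higher with JSH-23, at 0.19 and 0.45, of which the first did not pass with DESeq2 (0.19, adjusted p = 0.060) or without any one of the 3 WT libraries or of WT + JSH23 replicates 1 and 3 (0.16 to 0.21). F830016B08Rik was higher with JSH-23 in the comparison with LPS (0.50), and LPS alone had lowered it (-0.64). Its mean CPM was 12.6 in WT, 8.05 in WTL, 11.1 in WT + JSH23 and 11.4 in WTL + JSH23.

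Tgtp1, the near-identical copy of Tgtp2, had mean CPM of 43.4 in WT, 91.7 in WTL, 21.4 in WT + JSH23 and 24.5 in WTL + JSH23. Its log2 change with LPS was 1.08 ± 0.082, which, like the fall of Tgtp2, cannot be separated from how reads were divided between the copies, and its interaction was -0.89 ± 0.13 (adjusted p = 5.4e-05). The interaction was negative and passed for 7 of the 20 genes, including Gm12250 (Irgb10, -0.52), Gm5431 (-0.59) and 9930111J21Rik2 (-0.46), and positive for 4. Gbp2b was among the 4. Its interaction ranged from 0.23 to 0.44 when 1 library was left out, and it passed in 6 of these 12 fits. Counts were fractional in 11 libraries for Gm5431 and in 12 for 9930111J21Rik2, and whole throughout for Gm12250. RefSeq windows were found for 8 of the 20, of which 5 held an ISRE, 3 a GAS and 0 the κB consensus. Gm12250 and Tgtp1 were among those with both an ISRE and a GAS, and in Tgtp1 the motifs are again 2 bases apart.

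The genes that relay interferon signals to the families were followed from the ligands downwards. Ifnb1, encoding interferon-β, had 12, 17 and 10 counts in the libraries of WT, 49, 44 and 45 in WTL, 1, 0 and 3 in WT + JSH23 and 3, 7 and 6 in WTL + JSH23. All WTL libraries were above all others, and all JSH-23 libraries below all WT libraries. Ifng, encoding interferon-γ, had at most 1 count in a library, and Ifna4 was at 0 in all 12. Of the receptor genes, Ifnar1 fell with JSH-23 by 0.75 without and 0.56 with LPS, and Ifnar2 by 0.19 and 0.30. Ifnar2 rose with LPS (0.74 and, with JSH-23, 0.62).

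Of 14 genes for kinases, STATs and IRFs, 10 were lower with JSH-23 without LPS and 13 with LPS, and 0 were higher. Of all genes, 22.1% and 24.2% were lower and 18.8% and 24.5% higher. Stat2 (-0.41 and -0.63), Irf7 (-0.39 and -0.62) and Irf2 (-0.54 and -0.71) were lower, and Batf2, a partner of IRF1, fell more than 2-fold in both (-1.41 and -1.63). Irf1, which like Gbp5 rose with LPS in both, had mean CPM of 273, 695, 175 and 567 in WT, WTL, WT + JSH23 and WTL + JSH23. It rose with LPS by 1.35 without and 1.70 with JSH-23, and its interaction was 0.35 ± 0.051 (adjusted p = 7.0e-05). Irf8 also rose with LPS in both (0.73 and 0.52).

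Of 6 inhibitors of the pathway, 5 were lower with JSH-23 without LPS and 6 with LPS, against 22.1% and 24.2% of all genes. Socs1 was at -1.12 and -0.99, Socs3 at -1.11 and -1.27, Usp18 at -0.67 and -1.28 and Ptpn6 at -0.88 and -0.81. Socs3 rose with LPS by 3.80 without and 3.64 with JSH-23 and Socs1 by 1.61 and 1.75. The interaction of Usp18, the protease that removes ISG15, was -0.62 ± 0.06, of the same sign as those of the IRG genes. Among 8 genes of the LPS receptor and its TRIF branch, which leads to interferon-β, 5 were lower and 3 higher with JSH-23 without LPS and 5 lower and 2 higher with it. Of all genes, 22.1% and 24.2% were lower and 18.8% and 24.5% higher. The kinase gene Ikbke was at -1.05 and -0.91.

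Of 28 other interferon-stimulated genes, 25 were lower with JSH-23 without LPS and 28 with LPS, against 22.1% and 24.2% of all genes. Only 1 (Cxcl10) and 10 of the 28 fell by more than 2-fold, against 2.94% and 3.25% of all genes. The median log2 changes of the 28 were -0.60 and -0.84, beside -0.87 and -1.25 for the members, and no test of this difference was made. Cxcl10, a chemokine, fell the most of the 28 (-2.64 and -2.28). With LPS alone 22 of the 28 were higher and 3 lower, against 31% and 34.7% of all genes. With LPS in the presence of JSH-23 11 were higher and 8 lower, against 27.4% and 27.1%. The interaction was negative and passed for 19 of the 28 and positive for 1, against 8.44% and 9.54% of all genes.

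Genes whose products act with GBPs and IRGs did not share one direction. Of 10 inflammasome genes, 9 were lower with JSH-23 without LPS and 10 with LPS, including Aim2 (-0.80 and -0.88), Gsdmd (-0.58 and -0.58) and Casp4 (caspase-11, -0.19 and -0.37). Nlrp3 rose with LPS by 2.86 without and 2.87 with JSH-23. Of 14 genes for autophagy conjugation and ubiquitin, 6 were higher and 3 lower with JSH-23 without LPS, and 4 higher and 3 lower with LPS. Sqstm1, encoding the cargo receptor p62, rose (1.17 and 0.92), while the ubiquitin ligase genes Trim21 (-0.86 and -1.13) and Rnf213 (-0.70 and -0.73) fell. Of 5 genes for prenylation, the lipid modification that anchors some GBPs to membranes, 2 were higher and 1 lower without LPS, and 1 higher and 1 lower with it. Of all genes, 22.1% and 24.2% were lower with JSH-23 without and with LPS, and 18.8% and 24.5% higher. Several counts of the autophagy and prenylation lists lie near these shares, so no result is read from them.

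The 5 protein-coding genes whose pattern was most like that of the members were Ncf4, Pnpt1, Phf11d, Aftph and Kdr, of 8173 ranked. Likeness was Pearson's r over the 12 libraries between a gene's log2 CPM and the mean of the standardized member values, and it was 0.996 for Ncf4, which encodes a subunit of the phagocyte NADPH oxidase, and 0.993 to 0.992 for the others. The mean CPM of Ncf4 was 91.6 in WT, 99.4 in WTL, 51.3 in WT + JSH23 and 51.4 in WTL + JSH23. That of Kdr, encoding a receptor for vascular endothelial growth factor, was 70.0, 110.03, 23.4 and 20.3. The 12 libraries form 4 groups, so these r mostly compare group means. Among the members themselves, r with Gbp5 ranged from 0.24 (Tgtp2) to 0.75 (Gbp7), while the other pairs ranged from 0.80 (Gbp7 and Tgtp2) to 0.99 (Igtp and Irgm2, which overlap).

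Summed levels of markers of other cells differed between the groups. The summed CPM of 7 macrophage markers, all past the filter, was 1883 to 2004 in WT, 1326 to 1428 in WTL, 1492 to 1535 in WT + JSH23 and 1218 to 1252 in WTL + JSH23. Of the 7, 4 were lower and 1 higher with JSH-23 without LPS, and 4 lower and 2 higher with LPS. Of all genes, 22.1% and 24.2% were lower and 18.8% and 24.5% higher. Among the 7 markers Fcgr1, itself interferon-inducible, was at -1.31 and -1.40 with JSH-23 and Cd68 at 0.35 and 0.52. The sum of 8 neutrophil and granule markers, 6 past the filter, was 258 to 273 in WT, 236 to 244 in WTL, 210.4 to 224 in WT + JSH23 and 186 to 201 in WTL + JSH23. Mmp8 made up most of this sum (mean CPM 221 in WT and 182 in WTL), and with LPS alone it fell while 4 others (S100a8, S100a9, Camp and Ngp) rose. With JSH-23, 2 of the 6 were lower without LPS and 6 with LPS, against 22.1% and 24.2% of all genes. For the 9 T and NK cell markers, of which Cd8a alone passed, the sum was 7.54 to 8.21 in WT, 4.57 to 5.33 in WTL, 4.30 to 5.25 in WT + JSH23 and 2.87 to 3.38 in WTL + JSH23. It was thus lower with JSH-23, but with 1 marker past the filter it says little on these cells. For the 5 B cell markers it was 0.123 to 0.600 over the 12 libraries. The 8 dendritic cell markers summed to 15402 to 15662 in WT, 17898 to 18923 in WTL, 14581 to 14956 in WT + JSH23 and 15904 to 17266 in WTL + JSH23. The part of these differences in the results for the members was not tested, and in bulk libraries fewer cells of a type and less RNA per cell cannot be told apart.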

How the data were processed

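RNA-seq was analysed for 12 libraries in 4 groups of 3, taken from the sample titles. The authors aligned the reads to mm10 with STAR (2.6.0c in the submitters' processing notes) and estimated expression with RSEM over a GENCODE release that is not given in the sources used here. The labels name rRNA depletion and the methods poly(A) selection, which was not settled. The deposited values are expected counts, TPM and FPKM for each gene. FPKM, deposited beside them, was not used. The deposited expected counts were not scaled between libraries, and reads that fit several genes were divided among them. TPM, as deposited by the authors, sums to one fixed total per library, so it moves when abundant genes change.

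Expected counts were rounded to whole numbers and filtered with filterByExpr of edgeR 4.0.16 (R 4.3.3), which left 14357 genes with 99.94% to 99.95% of the counts. The main test was the quasi-likelihood F-test of edgeR, two-sided, with TMM scaling, one mean per group over all 12 libraries (8 residual degrees of freedom) and Benjamini-Hochberg adjustment. Standard errors were the absolute log2 change divided by the root of F. A gene passed at an adjusted p under 0.05 and was called when also changed more than 2-fold. The interaction needed no fold. The fit was tested on simulated data. Alternatives were DESeq2 1.42.0, other scalings and filters, limma 3.58.1 on log2(TPM + 1) and log2(TPM + 0.1), and leaving out each library. The sum of Igtp and Irgm2 was added after seeing the data. Positions and symbols came from GENCODE M21, and promoter windows from RefSeq.

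The members and the gene lists were chosen with earlier results of these data known. Named were every member, any gene of the family, ligand, receptor, kinase, STAT, IRF and inhibitor lists, and of other lists the called genes with the largest change and at least 10 CPM. Not every gene of these lists, nor every gene that met this rule, is reported here. Aim2, Gsdmd, Casp4, Rnf213, Ikbke and Cd68 were in part outside this rule and were named after their values were seen.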

Additional observations from a re-analysis of the deposited data

Results flagged for a closer look

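The change with LPS differed with JSH-23 for 7 of the 10 genes, by the interaction test of edgeR (adjusted p under 0.05), against 9.54% of all genes tested with a positive and 8.44% with a negative one. The log2 change with LPS in the presence of JSH-23 less that in its absence was -0.59 for Irgm2, -0.55 for Irgm1, -0.52 for Tgtp2, -0.50 for Ifi47 and -0.46 for Igtp. It was 0.32 for Gbp5 and 0.18 for Gbp7, which no longer passed under DESeq2 size factors or when any one of 9 of the 12 libraries was left out. All 3 regulatory IRG genes and 2 of the 3 effector IRG genes were thus on the negative side and 2 of the 4 GBP genes on the positive side, and Iigp1, at -0.083, did not pass. Counts of Ifi47 were fractional in 5 libraries. Igtp and Irgm2 share reads, as do Tgtp2 and Tgtp1, and with the counts of each pair summed the values were -0.54 and -0.63. Of 14 genes for kinases, STATs and IRFs it was negative for 5 and positive for 1 (Irf1, 0.35), and of 28 other interferon-stimulated genes negative for 19 and positive for 1. It was -0.62 for Usp18. No explanation was tested.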

How the results depend on the processing

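Every one of the 20 changes of the members with JSH-23 kept its direction and an adjusted p under 0.05 under each alternative run. Without the fold threshold, 9 members passed for LPS, 7 for LPS with JSH-23 and 10 for JSH-23 without LPS, and with a 2-fold threshold added 0 of the 7 interactions remained. Leaving out 1 library left 3 to 4 members called for JSH-23 without LPS and 6 to 7 interactions passing. Changes with LPS turned direction on log2(TPM + 1) and log2(TPM + 0.1) for Gbp3 (-0.26 in both), Gbp7 (-0.082 in both), Irgm1 (-0.0013 in both), Irgm2 (-0.074 and -0.075) and Igtp (-0.20 in both). In these fits the changes of all genes shifted by a median of -0.29 and -0.33. Tgtp2 turned to 0.13 when summed with Tgtp1. Gbp3, which did not pass, turned to -0.0036 with upper quartile scaling and, for LPS with JSH-23, to -0.034 with that scaling and -0.15 with both TPM fits. Interactions near 0 also turned: that of Gbp2 to -0.022 with DESeq2 size factors and with the DESeq2 Wald test and -0.00048 with upper quartile scaling (-0.033 to 0.055 when 1 library was left out), that of Gbp3 to 0.11 in both TPM fits (-0.054 to 0.00049 when 1 library was left out) and that of Iigp1 to 0.059 and 0.016 in the TPM fits. For LPS with JSH-23, Ifi47 and Gbp2 passed as lower with upper quartile scaling (-0.13 and -0.18) and in both TPM fits (-0.25 and -0.30). The cause of these changes was not tested.

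Same-numbered libraries of a group pair correlated in their deviations from the group means by 0.014 to 0.061, so the numbers were not taken to pair the samples. With the replicate block 1 member was called for LPS, 1 for LPS with JSH-23 and 7 for the interaction, and Gbp2 passed for LPS with JSH-23 (-0.095, adjusted p = 0.018) and was at -0.00011 for the interaction. In WT and WTL, each library correlated best with its own number, and in the JSH-23 groups this was not so for replicate 1 of WT + JSH23 and replicate 2 of WTL + JSH23. No paired analysis was possible for JSH-23 against no JSH-23 because those groups share no replicate number.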
